A study of Mus musculus with 10 samples.

Results

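The immunity-related GTPases (IRG proteins) of the mouse are interferon-induced, dynamin-like GTPases. The 8 genes described here are Irgm1, Irgm2, Igtp (also called Irgm3), Iigp1 (Irga6), Tgtp1 and Tgtp2 (both Irgb6), Gm12250 (Irgb10) and Ifi47 (Irgd). They were chosen by symbol from the 23370 genes of the transcript table, and the transcript with the highest mean level was taken for each symbol. All 8 were found. All passed the expression filter of at least 1 RPKM (depth-scaled reads per kilobase of a transcript) in at least 2 of the 10 libraries, which left 12168 genes for testing. Gm12250 was below 1 RPKM in the naive 0 h library and passed through the others.

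Transcripts were measured in mouse embryonic fibroblasts (MEFs), connective tissue cells grown out of embryos, from C57BL/6 mice. In every group the H3f3b locus, which encodes the histone variant H3.3, had been replaced by an HA-tagged H3.3 cDNA, the naive libraries included. Per time, 1 library was made from pretreated cells and 1 from naive cells (0, 1, 2, 4 and 6 h). The labels give 100 U per ml of interferon-beta (IFN-β), an antiviral cytokine, for every library, and hours are taken to count from its addition. How much interferon the pretreated cells had met before, for how long, and how many embryos or cultures were used are not stated there. The labels name no unstimulated cells after 0 h, so a change after 0 h cannot be told apart from an effect of time in culture.

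IRG proteins fall into a pair of classes, named for a motif in the nucleotide-binding site. The GMS proteins (Irgm1, Irgm2, Igtp) sit on membranes of the host cell and keep the other class inactive there. The GKS proteins (Iigp1, Tgtp1, Tgtp2, Gm12250, Ifi47) are effectors that load onto the vacuoles of intracellular parasites and bacteria such as Toxoplasma and Chlamydia and disrupt them. Interferons act on their target genes through short promoter elements, the interferon-stimulated response element (ISRE), best known from type I interferon, and the gamma-activated site (GAS), best known from interferon-gamma.

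Per the coordinates in the table (mm10), 7 of the 8 genes lie in a pair of clusters on chromosome 11. The first spans chr11:48865249-49096971 (231.7 kb) and holds Irgm1, Tgtp1, Tgtp2 and Ifi47 among 9 genes of the table. The second spans chr11:58183843-58222783 (38.94 kb) and holds Gm12250, Igtp and Irgm2 and no other gene of the table. Iigp1 lies on another chromosome. RefSeq promoter windows (250 bases before to 50 after the annotated start, GRCm38.p6) were matched for the same 7 genes. The core of the ISRE (GAAA, any 2 bases, GAAA), searched on both strands, was present in 6 of the 7 windows, against 3.44% of 32851 mouse promoters of the same length. The core TTCNNNGAA of the GAS was present in 5 of the 7, against 8.30% of all promoters. In the same 5 windows the centres of an ISRE core and a GAS core lay within 30 bases of each other, a spacing found in 0.161% of all promoters. The window of Ifi47 held neither core, but it lies 10430 bases from the start of the Ifi47 transcript that was counted. The 54 bases around the ISRE core of each of the 6 promoters are printed below, 5′ to 3′ on the strand of the gene, to show how far the cluster genes resemble each other there. Capitals mark the ISRE and GAS cores.
Irgm1: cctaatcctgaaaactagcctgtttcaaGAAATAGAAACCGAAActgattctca
Irgm2: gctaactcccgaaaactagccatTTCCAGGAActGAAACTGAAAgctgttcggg
Igtp: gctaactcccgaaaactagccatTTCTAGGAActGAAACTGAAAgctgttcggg
Tgtp1: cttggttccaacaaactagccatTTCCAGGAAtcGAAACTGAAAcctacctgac
Tgtp2: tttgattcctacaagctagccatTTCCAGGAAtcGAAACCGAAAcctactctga
Gm12250: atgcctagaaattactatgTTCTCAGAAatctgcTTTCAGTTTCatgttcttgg
The stretches lie at chr11:48871425-48871478 on the minus strand (Irgm1), chr11:58214879-58214932 on the plus strand (Irgm2) and chr11:58199488-58199541 on the plus strand (Igtp). Those of Tgtp1 (chr11:48992304-48992357) and Tgtp2 (chr11:49064263-49064316) are on the minus strand, and that of Gm12250 (chr11:58183763-58183816) is on the plus strand. Irgm2 and Igtp had 53 of the 54 bases in common, Tgtp1 and Tgtp2 had 44, and Irgm2 and Tgtp1, from different clusters and different classes, had 37. Irgm1 had 28 to 33 bases in common with these 4, and Gm12250 had 7 with each of its cluster neighbours Irgm2 and Igtp and 10 to 14 with the other 3. All these counts compare the stretches base by base as printed, without gaps. The printed ISRE core of Gm12250 reads on the strand opposite to that of the others. Its low counts therefore do not measure likeness with the cores turned the same way, which was not compared. In Irgm1 the capitals hold 2 overlapping ISRE cores and no GAS core. Gm12250 has its GAS core before an ISRE core that reads on the opposite strand, and its window holds 2 ISRE cores in all. These matches are descriptions of the letters and not measured binding sites. Windows as alike as those of Irgm2 and Igtp are not independent, so the promoter counts above are not counts of separate occurrences.

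Some members share sequence, which limits how far their reads can be assigned. Of the 50-base stretches of the annotated Tgtp2 transcripts, 89.8% also occur in Tgtp1, and 79.4% of those of Tgtp1 occur in Tgtp2. The ratio of Tgtp1 to Tgtp2 counts lay between 1.16 and 1.28 in all 10 libraries, and the pair is not treated as 2 independent measurements. With Gm12185, a further IRG gene of the first cluster, Tgtp1 shares 5.64% and Tgtp2 5.11% of its stretches. Igtp shares 11.8% of its stretches with Irgm2, Irgm2 shares 6.79% with Igtp, Iigp1 shares 2.79% with the related gene Gm4951, and Ifi47 shares 2.54% with Olfr56. Olfr56 also spans Tgtp2 and Ifi47 on the genome, and 1 transcript of 9930111J21Rik2 spans Tgtp1. The use of strand in counting is not stated.

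The libraries held 83.9 to 268.5 M counts (M, mega), and 11607 to 11815 genes reached 1 RPKM in each. Of 10 fibroblast markers, 9 were above 1 RPKM in every library and Lum was at most 0.195 RPKM. Of 7 macrophage markers, Cd14 and Cd68 were above 1 RPKM, and the summed level of all 7 was 7.26 to 12.4 RPKM in pretreated and 6.53 to 8.83 RPKM in naive libraries. Ptprc, which marks all leukocytes, was at most 0.003 RPKM. Within the pretreated arm, the 1 h and 4 h libraries stood apart in the imprinted RNA H19, with 43.7 and 44.4 RPKM, against 9.19 to 9.78 RPKM at 0, 2 and 6 h and 53.4 to 123 RPKM in the naive libraries. Of the fibroblast markers, Col3a1 was also highest in those 2 pretreated libraries (951 and 1116 RPKM, against 548 to 737 RPKM in the other 3). Dcn (72.1 and 95.1 RPKM, against 45.3 to 68.1 RPKM), Col1a1 and Col1a2 were so too. Pdgfrb went the other way, with 109.9 and 107.0 RPKM in those 2 libraries, against 117.8 to 143.3 RPKM. Thy1, Pdgfra, Vim, Fn1 and Lum followed neither pattern. Ribosomal precursor Rn45s took 3.90% of counts at pretreated 0 h, 2.85% at pretreated 1 h and 0.974% to 1.51% in the other 8.

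Summed over the 8 genes, the level before stimulation was 419 RPKM in pretreated cells and 26.1 RPKM in naive cells. It reached its highest value, 2284 RPKM, at 4 h in the pretreated arm, and 2607 RPKM, at 6 h, in the naive arm. As a share of all counts, the family held 0.107%, 0.302%, 0.600%, 0.594% and 0.509% of the pretreated libraries at 0, 1, 2, 4 and 6 h. In the naive libraries it held 0.00651%, 0.126%, 0.448%, 0.634% and 0.679%. The arms therefore crossed between 2 and 4 h on this measure, with pretreated cells ahead before and naive cells ahead after. In bulk RNA a change in the share of responding cells cannot be told apart from a change in the level per cell.

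**Figure D1:**
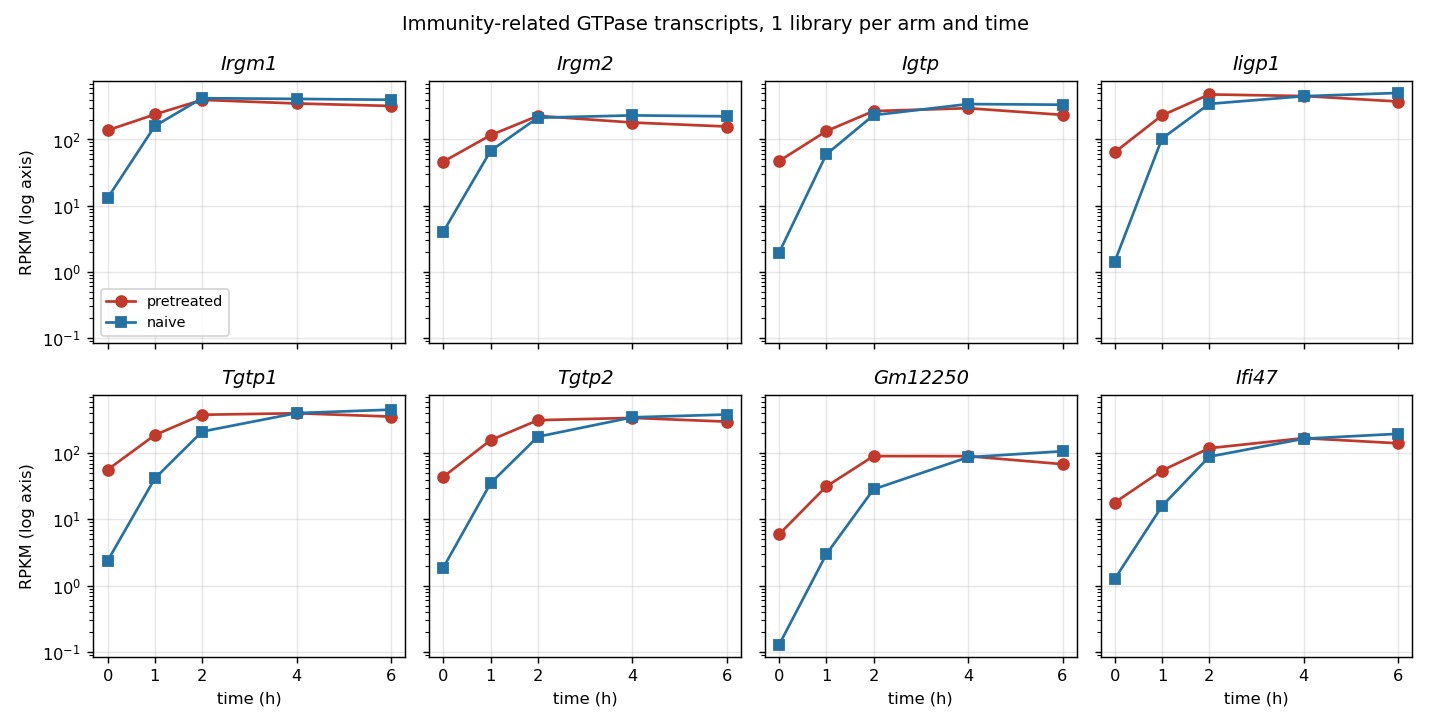
Level of each of the 8 transcripts in RPKM (vertical log axis) against time in hours, with 1 library per point and 1 line per arm. The pretreated line starts far above the naive line for every gene, and the naive line lies above the pretreated line for every gene at 6 h.

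Of the 3 GMS regulators, Irgm1 and Irgm2 had the highest levels in naive cells at 0 h, and all 3 levelled off before the effectors in the naive arm. Irgm1, needed for the control of several vacuolar pathogens, stood at 137, 239, 397, 349.7 and 321 RPKM in pretreated cells at 0, 1, 2, 4 and 6 h, and at 13.0, 159.7, 420.4, 410.1 and 398 RPKM in naive cells. Irgm2, which resides mainly at the Golgi apparatus, stood at 46.2, 116, 227, 180.3 and 157 RPKM in pretreated and at 4.04, 67.2, 213, 231 and 224 RPKM in naive cells. Igtp, found on the endoplasmic reticulum and lipid droplets, stood at 47.2, 134, 269, 297 and 235 RPKM in pretreated and at 1.94, 59.5, 233, 343 and 335 RPKM in naive cells. All 3 were higher in the pretreated library at 0 and 1 h and lower in it at 4 and 6 h. At 2 h Irgm1 was the only one of the 8 genes that was lower in pretreated than in naive cells, as 54.7% of all genes tested were.

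Among the GKS effectors, Iigp1 and the Tgtp pair were the most abundant. Iigp1, an effector that coats the Toxoplasma vacuole, stood at 64.1, 231, 479, 453 and 375 RPKM in pretreated cells and at 1.43, 103, 345, 451 and 505 RPKM in naive cells. Tgtp1 stood at 56.4, 188, 382, 402 and 358 RPKM in pretreated and at 2.37, 41.7, 213, 404 and 456 RPKM in naive cells. Tgtp2, with which it shares most of its sequence, stood at 44.1, 158, 316, 342 and 300.5 RPKM in pretreated and at 1.87, 35.2, 178, 349 and 385 RPKM in naive cells. In each of the 3 the pretreated course was nearly flat between 2 and 4 h, whereas the naive course was still climbing at 6 h.

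Ifi47 and Gm12250 were the least abundant members. Ifi47 stood at 18.01, 54.8, 119, 169 and 141 RPKM in pretreated and at 1.26, 15.9, 88.8, 166 and 197 RPKM in naive cells. Gm12250, whose protein is known for its action at bacterial membranes and chlamydial inclusions, stood at 5.95, 31.5, 90.5, 90.4 and 68.4 RPKM in pretreated and at 0.127, 2.98, 28.6, 87.0 and 107 RPKM in naive cells. It was the lowest of the 8 genes in all 10 libraries. Its naive 0 h value rests on 32 counts (95% exact Poisson interval 21.9 to 45.2 counts, or 0.0869 to 0.179 RPKM), and the interval covers counting error only.

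In naive cells the whole family was above its resting level by 1 h. On the log2(RPKM + 1) scale, all 8 exceeded the naive 0 h level at least 2-fold at 1 h, where 2.02% of the 12168 genes did. With a pseudocount of 5 in place of 1 it was 7 of 8, since Gm12250, at 2.98 and 0.127 RPKM, came to a log2 difference of 0.64. At 2, 4 and 6 h it was again 8 of 8, where 3.95%, 5.71% and 6.20% of all genes did so. As plain ratios of RPKM, naive 6 h over naive 0 h was smallest for Irgm1 (30.6-fold) and Irgm2 (55.5-fold). It was 156-fold for Ifi47, 173-fold for Igtp, 192-fold for Tgtp1, 206-fold for Tgtp2, 354-fold for Iigp1 and 844-fold for Gm12250. Gm12250 thus had the lowest resting level and the largest ratio, and Irgm1 the highest resting level and the smallest ratio. These are single libraries, without a test.

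In pretreated cells the ratios to 0 h were smaller and the starting level was higher. All but Irgm1, 7 of 8 members, were 2-fold or more above pretreated 0 h at 1 h, where 1.31% of all genes were. At 2, 4 and 6 h all 8 were, where 3.60%, 4.19% and 3.15% of all genes were. Pretreated 6 h over pretreated 0 h lay between 2.34-fold for Irgm1 and 11.5-fold for Gm12250, so the member with the smallest and the member with the largest ratio were those of the naive arm.

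Across both arms, the later libraries (mean of 2, 4 and 6 h) were set against 0 h in a model of all 10 libraries with time and arm, by edgeR's quasi-likelihood test. All 8 members rose past an adjusted p (Benjamini-Hochberg over 12168 genes) of 0.05, as did 19.9% of all genes, while 20.0% fell past it. The log2 change was 2.67 for Irgm1 (SE 0.80, adjusted p = 0.0354), 3.37 for Irgm2 (SE 0.88, adjusted p = 0.0229) and 4.03 for Igtp (SE 1.12, adjusted p = 0.0279). Among the effectors it was 4.34 for Iigp1 (SE 1.28, adjusted p = 0.0333), 4.37 for Tgtp1 (SE 1.13, adjusted p = 0.0220) and 4.47 for Tgtp2 (SE 1.14, adjusted p = 0.0209). It was 4.44 for Ifi47 (SE 0.98, adjusted p = 0.0134) and 5.64 for Gm12250 (SE 1.43, adjusted p = 0.0208). The 3 GMS genes had the smallest changes of the 8, although the SEs of the 2 classes overlap. Time points stood in for replicates here, and time itself was a factor of the model. These SEs and p-values therefore speak of how far the arm difference varied between times, and not of the spread across cultures. The arms did change unequally. From 0 to 2 h Irgm1 rose by 4.91 in naive and by 1.52 in pretreated cells on the log2(RPKM + 1) scale.

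The call changed when single libraries were left out. Without the naive 0 h library 0 of 8 passed (log2 change 1.53 to 4.33, adjusted p 0.0571 to 0.0821 by edgeR), and 8 genes of the whole table did. Without the pretreated 0 h library the changes were larger (4.96 to 8.83). Without the pretreated 1 h, pretreated 2 h or naive 1 h library, Irgm1, Igtp and Iigp1 missed the threshold. Their log2 changes there were 2.66 to 2.87, 3.96 to 4.26 and 4.30 to 4.54. With all 10 libraries they were 2.67, 4.03 and 4.34. A library left alone at its time is fitted by its own time term and adds nothing to the residual. Leaving out either 1 h library is therefore nearly the same fit, with fewer residual degrees of freedom. These missed calls do not show that each of those libraries drove the result. Without both pretreated 1 h and 4 h libraries all but Gm12250 and Ifi47 missed it, with log2 changes of 2.98 to 4.79. Irgm1 also missed the threshold without the naive 2 h or naive 6 h library, and Iigp1 without the naive 2 h library. Compared on its own, 1 h over 0 h gave log2 changes of 1.59 to 2.69 and 0 of 8 past the threshold by edgeR (adjusted p 0.442 to 0.477). No gene of the table passed that test (0%), with 1383 genes at an unadjusted p under 0.05, 236 genes past the threshold by DESeq2 and 5 by limma. Without the pretreated 0 h library the log2 changes of the 8 members at 1 h over 0 h were larger (3.96 to 6.68).

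The naive courses climbed at different times, with Irgm1 and Irgm2 first and Gm12250 last. Read by linear interpolation between samples, the naive course reached 50% of its own 6 h level at 1.15 h for Irgm1, 1.31 h for Irgm2 and 1.62 h for Igtp. Among the effectors it did so at 1.62 h for Iigp1, 2.16 h for Tgtp1, 2.17 h for Tgtp2, 2.25 h for Ifi47 and 2.86 h for Gm12250. Iigp1 thus kept the pace of Igtp rather than that of the other effectors. At naive 1 h Irgm1 already stood at 40.1% of its naive 6 h level, while Gm12250 stood at 2.77% of its own. Naive levels peaked at 2 h for Irgm1, at 4 h for Irgm2 and Igtp, and at 6 h, the last time sampled, for all 5 effectors. No test was made of this order, since each time has 1 library and the naive 6 h library sets the scale.

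**Figure D2:**
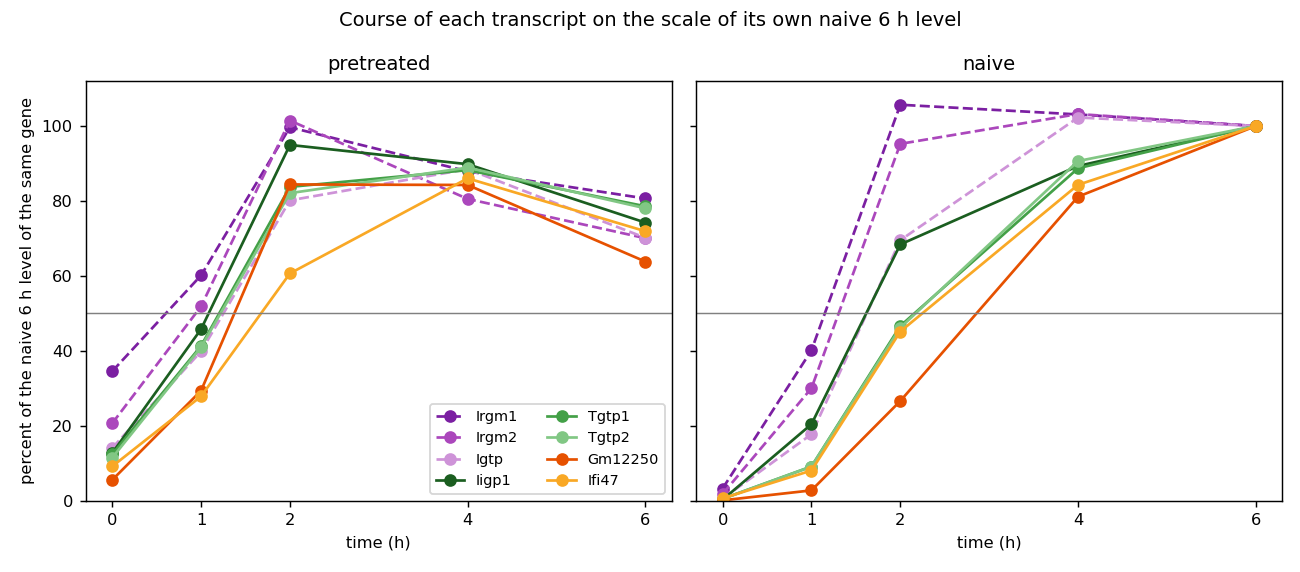
Level of each transcript as a percent of its own naive 6 h level (vertical axis) against time in hours, in the pretreated arm (left) and the naive arm (right), with Irgm1, Irgm2 and Igtp dashed and a grey line at 50%. The naive curves fan out, with Irgm1 reaching 50% at 1.15 h and Gm12250 at 2.86 h, and the pretreated curves peak at 2 or 4 h and are lower at 6 h.

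In the pretreated arm the courses were earlier and closer together. The 50% mark of the naive 6 h level was reached at 0.604 h for Irgm1, 0.940 h for Irgm2, 1.09 h for Iigp1, 1.2 h for Tgtp1, 1.22 h for Tgtp2, 1.25 h for Igtp, 1.37 h for Gm12250 and 1.67 h for Ifi47. Each of the 8 thus reached it earlier than in the naive arm. Part of that lead was present at 0 h, when pretreated Irgm1 was at 34.5% of its naive 6 h level and pretreated Gm12250 at 5.55%. The first hour also differed in gain. Gm12250 gained 25.5 RPKM per hour between 0 and 1 h in pretreated and 2.85 in naive cells, and Tgtp1 gained 132 in pretreated and 39.3 in naive cells. Irgm2 gained 69.9 in pretreated and 63.2 in naive cells, and Irgm1 was the exception, with 102 in pretreated and 147 in naive cells. These gains rest on single libraries without a test. The pretreated 0 h and 1 h libraries are those with the raised share of Rn45s, and the 1 h library also stood apart in H19, and the part of either in the gains was not tested.

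Pretreated courses peaked at 2 h for Irgm1, Irgm2, Iigp1 and Gm12250 and at 4 h for Igtp, Tgtp1, Tgtp2 and Ifi47. In the pretreated arm all 8 were lower at 6 h than at 4 h, where 34.9% of all genes were. In the naive arm the 3 GMS genes were lower at 6 h than at 4 h and the 5 effectors higher, where 49.0% and 51.0% of all genes were. Igtp, for example, lost 30.7 RPKM per hour between 4 and 6 h in pretreated cells and 3.79 in naive cells, whereas Iigp1 lost 39.3 in pretreated cells and gained 26.9 in naive cells. These are differences of single libraries, without a test, and the pretreated 4 h library is 1 of those that stood apart.

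Set against each other at the same time, the arms were far apart before stimulation and close at the end. At 0 h all 8 exceeded the naive library at least 2-fold in pretreated cells, where 2.56% of all genes were. The ratio of RPKM, pretreated over naive, was 10.6 for Irgm1, 11.5 for Irgm2, 14.2 for Ifi47, 23.6 for Tgtp2, 23.8 for Tgtp1, 24.3 for Igtp, 44.9 for Iigp1 and 46.9 for Gm12250. The pretreated 0 h library also had the higher share of Rn45s, 3.90% of counts against 1.01% in the naive 0 h library. The part of that in the result was not tested. At 1 h 6 of 8, all but Irgm1 and Irgm2, were at least 2-fold higher in pretreated cells, where 1.55% of all genes were. The pretreated 1 h library is 1 of those that stood apart. The RPKM ratio at 1 h was 1.498 for Irgm1, 4.52 for Tgtp1 and 10.6 for Gm12250.

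At 2 h Gm12250 alone remained 2-fold or more higher in pretreated cells, with a ratio of 3.17, where 1.55% of all genes were. At 4 h 0 of 8 were 2-fold higher or lower, where 0.238% and 0.131% of all genes were. The ratios at 4 h were 0.781 to 0.865 for the GMS genes and 0.981 to 1.04 for the effectors. At 6 h all 8 were lower in pretreated cells, where 38.3% of all genes were lower by any size, with ratios from 0.638 for Gm12250 to 0.807 for Irgm1. None of these reached 2-fold, where 0.214% of all genes were 2-fold or more lower. The median log2 difference over the 8 genes was 3.64, 1.44, 0.45, -0.02 and -0.45 at 0, 1, 2, 4 and 6 h, against 0.00, 0.02, -0.03, -0.01 and 0.05 over all genes tested. None of these comparisons of 2 libraries has a replicate.

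**Figure D3:**
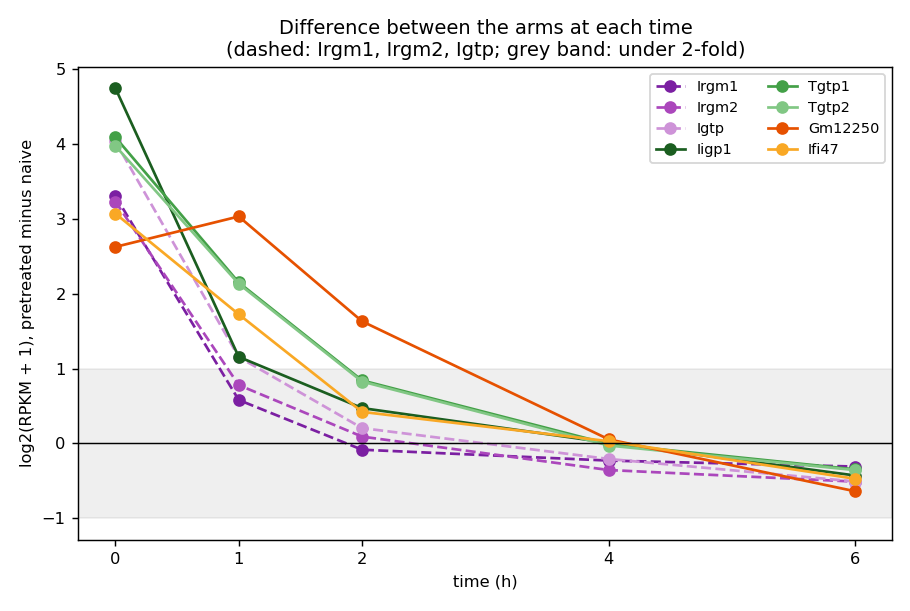
Difference in log2(RPKM + 1), pretreated minus naive (vertical axis), against time in hours for each of the 8 genes, with the GMS genes dashed and a grey band marking differences under 2-fold. Every line starts above the band at 0 h and ends below 0 but inside the band at 6 h, and Gm12250 is the last to enter the band.

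Averaged over the 5 times, the arms did not separate in a test. The log2 difference, pretreated minus naive, ran from 0.53 for Irgm1 (SE 0.54, adjusted p = 0.601 by edgeR) to 1.77 for Gm12250 (SE 0.91, adjusted p = 0.302). None of the 8 passed, where 1.27% of all genes did (154 genes, with 2660 at an unadjusted p under 0.05, and 1371 by DESeq2 and 204 by limma). For every member the sign of the difference at 6 h was opposite to that at 0 h. Leaving out either 0 h library takes that time out of the arm difference, so it is a single check whichever library is left out. Without either 0 h library the value of Irgm1 was -0.03 and that of Irgm2 -0.02, and without both pretreated 1 h and 4 h libraries 0 of 8 passed again.

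A term for the difference in induction, the change from 0 h to all later times in pretreated minus that in naive cells, was negative for all 8 genes. It was -3.43 for Irgm1 (SE 0.38, adjusted p = 0.0770), -5.21 for Iigp1 (SE 0.64, adjusted p = 0.128) and -4.47 for Igtp (SE 0.66, adjusted p = 0.223) by edgeR. Gm12250 had -4.51 (SE 1.74, adjusted p = 0.809), and the other members lay between -3.95 and -3.43. None of the 8 passed, nor did any gene of the table (0%), where the smallest adjusted p was 0.0516 and 740 genes had an unadjusted p under 0.05. DESeq2 called 6 of 8 members (133 genes in all), limma called Irgm1 (15 genes in all), and edgeR without the expression filter called Irgm1, Irgm2, Igtp and Iigp1 (28 genes in all). The term rests on 1 library per arm at 0 h and has no value without either of them.

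The order of levels among the 8 genes changed with stimulation. Irgm1 made up 32.8% of their summed RPKM in pretreated and 49.95% in naive cells at 0 h, and 16.4% in pretreated and 15.3% in naive cells at 6 h. The 3 GMS genes together made up 55.0%, 42.4%, 39.1%, 36.2% and 36.4% in pretreated cells at 0, 1, 2, 4 and 6 h, and 72.9%, 59.0%, 50.4%, 40.3% and 36.7% in naive cells. The GMS share of pretreated cells at 0 h thus lay between those of naive cells at 1 and 2 h. Iigp1 was the most abundant member in pretreated cells from 2 h on and in naive cells from 4 h on. In the naive 0 h library Iigp1 ranked sixth of the 8, with 1.43 RPKM beside Ifi47 at 1.26 RPKM, and neighbours so close have no replicate to separate them. RPKM is per transcript length, so these levels can be set side by side, with the reservation on shared reads made for the Tgtp pair.

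**Figure D4:**
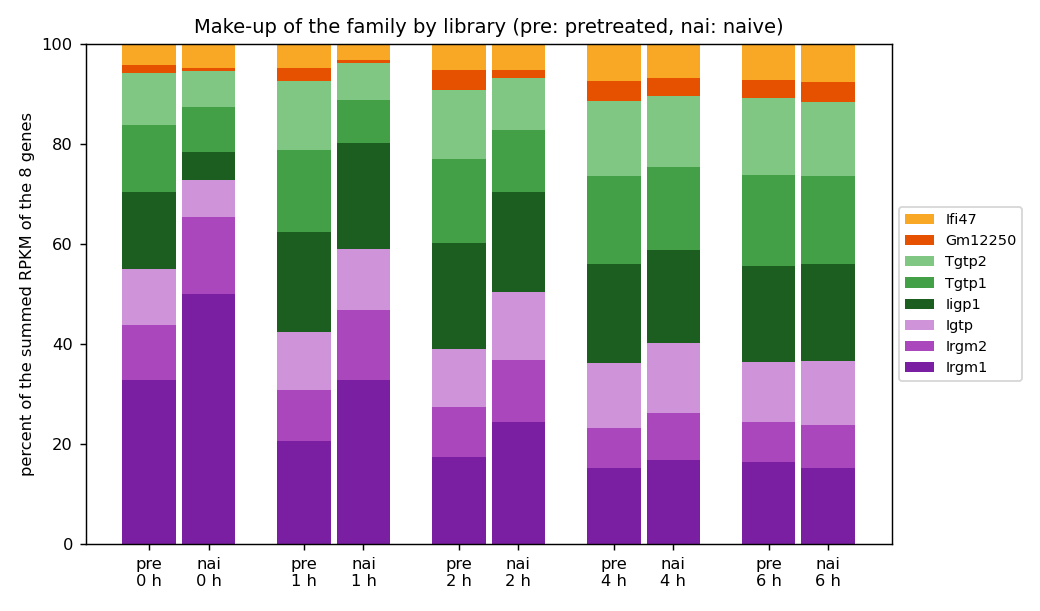
Share of each gene, in percent, in the summed RPKM of the 8 genes for each of the 10 libraries, pretreated (pre) left of naive (nai) at each time. The share of Irgm1 is largest at 0 h, 32.8% in pretreated and 49.95% in naive cells, and the share of the 5 effectors is larger at the later times in both arms.

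Genes whose course was most like that of the family were ranked by the root mean square distance between profiles of log2(RPKM + 1), each centred on its own mean over the 10 libraries. The 8 closest genes outside the family list were Gbp7, Ifi203, Gbp6, Slfn8, Ifi205, Parp14, Mndal and Gm4951, at distances of 0.188 to 0.363. The members themselves lay at 0.189 (Igtp) to 0.625 (Irgm1), and the median of the other genes was 1.98. The reference was the mean profile of these same 8 genes, so their own small distances are partly built in. They do not show a family set apart from other genes. Among all genes tested, Igtp held position 2, Gm12250 position 32 and Irgm1 position 35. Gbp7, a guanylate-binding protein of the pathogen vacuole, stood at 16.4, 41.7, 94.6, 97.7 and 85.0 RPKM in pretreated cells and at 0.647, 21.4, 74.5, 111 and 118 RPKM in naive cells. Taken singly, Irgm1 was closest to Dtx3l (0.195) and Stat2 (0.198), and Gm12250 to Gm4951 (0.438), an IRG gene not among the 8. Irgm1 was thus the member whose profile lay farthest from the family mean, with Gm12250 nearly as far (0.611). No test was made of that order.

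Other genes of the IRG system were read from lists in the same edgeR test of 2 to 6 h over 0 h, in which 19.9% of all genes were called higher and 20.0% lower. As for the 8 members, these calls lean on the naive 0 h library, without which 8 genes of the whole table were called. Of 13 further IRG symbols 9 were in the table and 8 were tested, and 6 were called higher against the 19.9% of all genes (Gm4841, F830016B08Rik, Gm5431, 9930111J21Rik1, 9930111J21Rik2 and Gm12185, log2 changes 2.57 to 4.78). Of the 9, 6 were under 1 RPKM at naive 0 h, among them Gm4841, F830016B08Rik, Gm5431 and Gm12185. Genes so low there could pass the filter of 2 libraries only with at least 1 later library, in which they were higher. The count of further IRG genes called is therefore given as a description. Irgq, a divergent relative of the family, fell by 0.56 (SE 0.11, adjusted p = 0.00995 by edgeR), and Gm4951 did not pass (4.60, adjusted p = 0.0522 by edgeR). In the first cluster all 9 genes, Olfr56 included, were higher at naive 6 h than at naive 0 h, by 3.19 to 7.08 on the log2(RPKM + 1) scale. The 8 nearest neighbours outside the clusters that passed the expression filter, such as Trim41 and Mgat1, differed by -0.43 to 0.51.

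The guanylate-binding proteins are large GTPases that act with IRG proteins at vacuoles. Of their 10 tested genes 9 were called higher, against the 19.9% of all genes, with log2 changes from 3.99 for Gbp7 and 4.35 for Gbp6 through 5.31 for Gbp2, the most abundant, to 7.32 for Gbp5. The others called were Gbp4, Gbp8, Gbp9, Gbp10 and Gbp11, and Gbp3 did not pass (3.77, adjusted p = 0.0631 by edgeR). At naive 0 h 9 of the 10 were under 1 RPKM, all but Gbp2. Those genes passed the filter of 2 libraries only with at least 1 later library, in which they were higher. Gbp5, Gbp8 and Gbp11 were under 1 RPKM at pretreated 0 h as well and entered the test through later libraries alone. The count of guanylate-binding proteins called is therefore given as a description. Among interferon signalling genes 6 of 11 were called higher, against the 19.9% of all genes, among them Stat2 (2.41), Irf1 (2.01), Irf2 (1.19), Socs1 (3.03) and Jak1 (0.31). Usp18, a negative regulator of the interferon receptor and the most abundant of this list, did not pass (3.84, adjusted p = 0.0753 by edgeR).

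In the ATG conjugation system, which helps to place IRG proteins on vacuoles, 1 of 11 genes was called higher and 2 lower, no larger shares than the 19.9% and 20.0% of all genes. Atg3 was higher by 0.53, and Atg7 and Gabarap were lower, at -0.32 and -0.29. The abundant Map1lc3b (-0.04), Gabarapl1 (-0.18) and Map1lc3a (-0.05) did not pass. Of 6 ubiquitin ligases and adaptors known from IRG-coated vacuoles 4 were called higher, against the 19.9% of all genes, with log2 changes of 3.50 for Trim21, 0.70 for Optn, 0.64 for Tax1bp1 and 0.35 for Traf6. Sqstm1 (-0.12), the most abundant of them, and Nbr1 (0.13) did not pass. None of the genes of these lists passed any of the other 3 tests by edgeR.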

How the data were processed

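One deposited table was used, with 10 libraries of total RNA sequenced on an Illumina HiSeq2000. Per the file headers it holds counts of tags and RPKM values for each of 30646 RefSeq transcripts of mm10. The counts were deposited unnormalised, and the RPKM values were computed by the authors. The submitters' processing notes name Bowtie, TopHat and Cufflinks 1.2.1 with no role. How strand and multiply aligned reads were handled in counting is not stated there. The 15 transcripts that named no gene (0.0157% to 0.0193% of counts) were left out.

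The highest-mean transcript per symbol was kept. Counts were tested with edgeR 4.0.16 (R 4.3.3, glmQLFit and glmQLFTest, TMM scaling, two-sided), with time and arm as factors (4 residual degrees of freedom) or with arm by stimulation added (3). The tests were first run on simulated counts with a single dispersion, in which only the effect under test was put in. In these data the arm difference of the members changed with time, so that run does not show how the tests perform on them. SEs are the log2 change over the root of F. DESeq2 1.42.0 and limma 3.58.1, on log2(RPKM + 1), were alternatives. Comparisons of single libraries used log2(RPKM + 1), 2-fold and no p. Named genes are the 8 members, the 8 closest profiles, and from each pathway list the 4 most expressed and those past a test, of which not all are reported here. Nearest profiles of single members, cluster neighbours and genes that mark single libraries were named after their values were seen. Members and lists were chosen with earlier results of these data known. Shared sequence was counted over GENCODE M21 transcripts.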

Additional observations from a re-analysis of the deposited data

How the results depend on the processing

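No paired analysis was possible because each arm and time has 1 library with no replicate number, and the time point is already a factor of the model. Each library was left out in turn, which assumes that the library left alone at its time varies like the rest. With time as a factor, the library left alone is fitted by its own time term. For the arm difference, leaving out either library of a time is therefore nearly the same check. For the change at 2 to 6 h, 0 to 8 members and 8 to 4983 genes passed. For the arm difference, 0 members and 2 to 175 genes passed. For 1 h over 0 h, 0 to 3 members and 0 to 24 genes passed, and for the difference in induction 0 members and 0 genes, with no value without either 0 h library. The arm difference changed sign for Irgm1 (-0.03) and Irgm2 (-0.02) without the pretreated or the naive 0 h library, and reached 0.80 and 0.90 without the pretreated 6 h library.

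The arm difference called 154 genes by edgeR, 1371 by DESeq2 and 317 without the expression filter. The 1 h test called 0 genes by edgeR, 236 by DESeq2, 5 by limma and 5 without the filter. The difference in induction called 0 members and 0 genes by edgeR, 6 members and 133 genes by DESeq2, 1 and 15 by limma, and 4 and 28 without the filter. Alternatives chosen after seeing the data left out the pretreated 1 h and 4 h libraries, with 14 genes for the arm difference and 2 members for the change at 2 to 6 h, or set 4 and 6 h against earlier times in the difference in induction, with 7 genes and 0 members. The cause was not tested. At a 3-fold instead of a 2-fold limit, 4 rather than 7 members were apart at pretreated 1 h over pretreated 0 h. Across settings 231 counts stayed within 1.5 times and 33 did not, and 907 values of single members kept direction and call, 26 lost and 14 gained the call, 4 reversed and 1 fell under 2-fold (Gm12250 at naive 1 h over naive 0 h with a pseudocount of 5, 0.64).

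Without replicates of a group, the tests cannot speak for other cultures. Counting error was widest for Gm12250 at naive 0 h, with 32 counts.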
